A study of Mus musculus with 2 samples.

Results

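The phospholipid flippases and plasma membrane calcium pumps described here are 9 listed mouse P-type ATPase genes, Atp8a1, Atp8a2, Atp9a, Atp9b, Atp11a, Atp11b, Atp2b1, Atp2b2 and Atp2b4. The genes were chosen by family when PSI changes and levels measured in these libraries were already known, so those values are given as a description and not as a test. An exon trio is an exon with the exons on either side of it, as held in the SpliceTrap exon database. Within the mm9 spans of the 9 genes, on the strand of each gene, lay 306 trios of 228333 in the database. Of these, 190 trios had at least 20 reads in each library, against 145628 of all trios, and they covered 163 distinct exons of 121475 in all.

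Poly(A) RNA of N2A, a line of mouse neuroblastoma cells, was sequenced in 2 libraries. The control library came from cells transfected with a control shRNA (shControl), and the Ptbp1 knockdown library from cells transfected with an shRNA against Ptbp1 (shptbp1), both collected after 3 days in culture. Both libraries came from bulk transfected cells of the same line, and no other agent or genotype is named for either. Each group was 1 library, so no value here has a replicate check, and no test of the condition was possible. The 95% intervals below cover counting error in these libraries only, and PCR reads without molecular identifiers are not independent molecules. Trio reads summed to 376949530 in the control and 304112662 in the knockdown library, with reads counted again in each trio that holds them. Ptbp1, the targeted splicing repressor, took 438 ppm of the aligned bases in the control and 144 ppm in the knockdown library, a log2 ratio of -1.61. Ptbp2, its neuronal homolog, had a log2 ratio of 1.09. Of 10 neuronal or sympathoadrenal marker genes, 7 had at least 10 read equivalents in both libraries, and 1 could not be measured. The summed level of those measured was 962 ppm in the control and 1061 ppm in the knockdown library. Single markers went both ways, among them Gap43 at 116 and 194 ppm and Stmn2 at 130 and 97.5 ppm. The summed level of 3 fibroblast markers was 0.299 and 1.01 ppm, that of 2 glial markers 1 and 1.32, that of 2 blood markers 0 and 0.0126, of which 1 could not be matched, and the liver marker Alb was listed at 0 in both.

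P-type ATPases move ions or lipids across membranes and pass through a phosphorylated intermediate in each cycle. The flippases of the P4 subfamily carry phospholipids, above all phosphatidylserine, from the outer or lumenal leaflet of a membrane to its cytosolic leaflet, and so keep the leaflets different. Most of them need a CDC50 chaperone subunit to leave the endoplasmic reticulum. The plasma membrane calcium pumps extrude calcium from the cytosol, and calmodulin activates them by binding a C-terminal inhibitory tail. Alternative exons of the calcium pump genes lie at splice site A, in a cytosolic loop near a phospholipid-binding region, and at splice site C, within the calmodulin-binding domain. Exon choice at site C changes the reading frame and with it the C-terminal tail. PTBP1 is an RNA-binding protein that represses many exons through pyrimidine-rich elements, and its level falls as neurons form.

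Splicing differed between the libraries in 4 of the genes, Atp8a1, Atp9b, Atp2b1 and Atp2b4. Percent spliced in (PSI), the share of transcripts that include an exon as estimated by SpliceTrap, was at least 5 points higher in the knockdown library for 7 of the 163 exons, or 4.29%, where the share over all exons of the series was 2.72%. It was at least 5 points lower for 4 exons, or 2.45%, against 2.68% over all exons. With the added condition that the 95% Newcombe interval of the junction reads leaves out 0, 6 exons were higher and 3 lower, and the shares over all exons were 0.767% and 0.747%. Among the 8 exons of the database's cassette class, 5 were higher, where 16.1% of all cassette exons were, and 1 was lower, where 14.6% were. All 6 also met the condition on the interval, which 8.39% and 6.44% of all cassette exons met in the higher and lower direction. Among 151 constitutive-class exons, 1 was higher and 3 were lower, against 1.34% and 1.57% of all such exons. With the condition on the interval these were 0 and 2, against 0.182% and 0.348%. These counts come from the measure that was known when the genes were listed, and nothing is read from their distance to the background. The exons are not independent of each other, since 3 of the 7 higher exons are overlapping forms of 1 Atp2b4 exon. The median difference in PSI was 0 over the 163 exons and 0 over all exons. Just inside the threshold lay a 661-nt exon of Atp2b4 at 5.5 points and a 95-nt exon of Atp9b at -6.4 points. Just outside lay a 108-nt exon of Atp2b4 at 3 points and a 139-nt exon of Atp8a1 at -2.8 points.

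**Figure D1:**
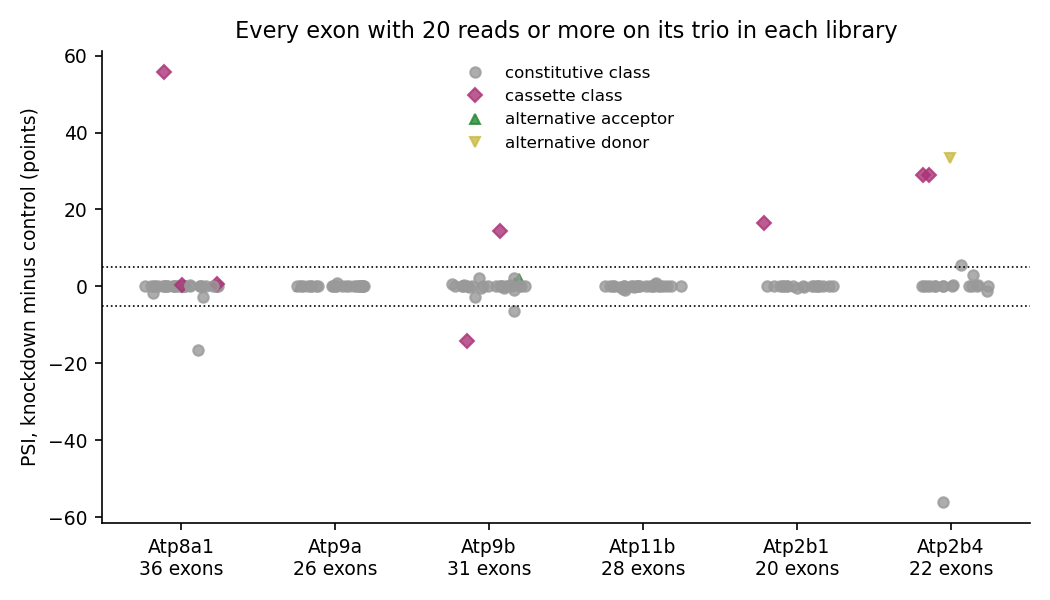
Difference in PSI (knockdown minus control, in points) of every exon with at least 20 trio reads in each library, by gene. Each symbol is 1 exon, its shape and colour give the database class, and dotted lines mark 5 points in either direction. Most exons lie at 0, and those beyond the lines belong to Atp8a1, Atp9b, Atp2b1 and Atp2b4.

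**Figure D2:**
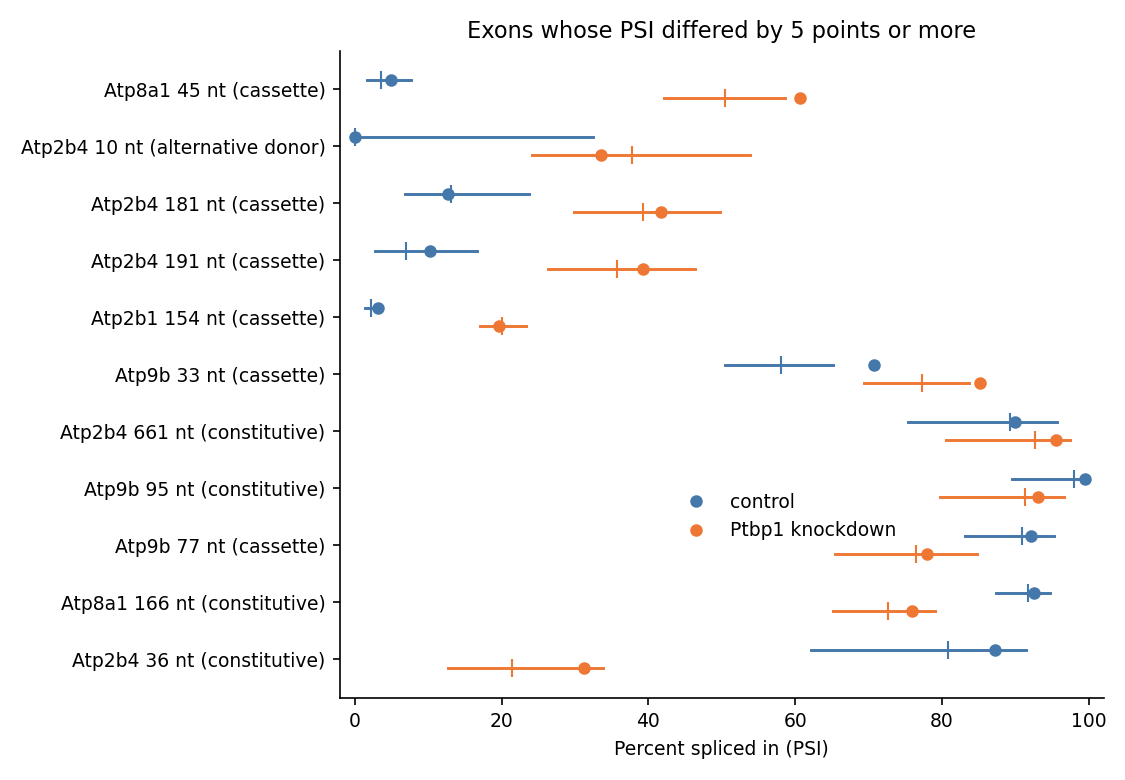
PSI of the 11 exons that differed by 5 points or more, in the control (blue) and the Ptbp1 knockdown library (orange). Filled circles are the SpliceTrap PSI, vertical ticks the PSI from junction reads alone, and horizontal lines its 95% Wilson interval. The intervals of the libraries lie apart for the Atp8a1 45-nt, Atp2b1 154-nt, Atp2b4 36-nt and Atp8a1 166-nt exons, among others, and overlap for the Atp2b4 10-nt, Atp9b 77-nt, Atp2b4 661-nt and Atp9b 95-nt exons.

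Atp8a1 encodes a flippase of phosphatidylserine. It lies on the minus strand of mm9 at chr5:68009379-68238671, and 43 trios covering 36 exons passed the minimum of reads. Its 45-nt cassette exon, in the coding sequence at chr5:68147889-68147933, had the largest increase in PSI of the 163 exons. The exon and the 100 nt of intron upstream of it are shown because the exon went from mostly skipped to mostly included by the SpliceTrap estimate. Capitals mark the letters CTCTCT and TCTT, searched on the RNA strand only, where matches may overlap. The upstream window lies at chr5:68147934-68148033, on the minus strand.
Atp8a1 45-nt exon: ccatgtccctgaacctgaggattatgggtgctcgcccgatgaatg
Atp8a1 upstream intron: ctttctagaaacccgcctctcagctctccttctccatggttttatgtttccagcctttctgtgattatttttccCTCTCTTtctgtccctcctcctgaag
Pyrimidines made up 76% of the upstream window, a share above that of 97.8% of 6397 cassette exons with 100 nt of intron upstream, whose median was 56%. CTCTCT was present in 11.2% of those windows and TCTT in 65.4%. A match is a description of the sequence and was not tested as a binding site.

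The PSI of the 45-nt exon was 4.9 in the control library, from 170 trio reads, and 60.6 in the knockdown library, from 206. In the control library 6 reads joined it to the exon before it, 5 to the exon after it, and 159 skipped it. In the knockdown library the same junctions held 54, 84 and 68 reads. Inclusion was rare in the control and the more frequent choice in the knockdown library by the SpliceTrap estimate. From junction reads alone PSI was 3.64 (95% Wilson interval 1.68 to 7.71) and 50.4 (42.1 to 58.6), a difference of 46.7 points (95% Newcombe interval 37.5 to 55.2). The 45 nt keep the reading frame, and the annotated protein has 1164 residues with the exon and 1149 without it.

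A 166-nt constitutive-class exon of Atp8a1, at chr5:68158259-68158424, differed in the other direction. Its PSI was 92.5 in the control library, from 708 trio reads, and 75.9 in the knockdown library, from 437. Reads that skipped it numbered 18 in the control and 42 in the knockdown library, while the flanking junctions held 197 and 200 reads in the control and 123 and 100 in the knockdown library. The difference of the junction PSI was -19 points (-27.1 to -11.2). Skipping shifts the frame, and the reading frame of the annotated transcript then ends after 286 residues, with 25 exons following the one that holds the stop codon. The other 32 of 33 constitutive-class exons of the gene had a PSI of at least 95 in both libraries. The 100 nt upstream of the 166-nt exon held 68% pyrimidines, above 90% of the cassette exons, and 0 matches to CTCTCT.

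Atp8a1 also holds a pair of 74-nt cassette exons in tandem between the same flanking exons, and their relative use differed although the PSI of each did not. This pair was picked out after its values were seen. SpliceTrap gave the exons a PSI of 99.4 and 99.6 in the control and 99.9 and 99.9 in the knockdown library, because each was measured only against joint skipping. That skipping was seen in 1 read in the control and 0 in the knockdown library. The first exon in the direction of transcription lies at chr5:68172227-68172300 and the second at chr5:68170199-68170272, both coding and on the minus strand. Their sequences are shown to compare the alternatives, with the positions that differ in capitals.
Atp8a1 first 74-nt exon: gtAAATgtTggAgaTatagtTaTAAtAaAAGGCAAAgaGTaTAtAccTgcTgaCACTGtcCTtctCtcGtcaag
Atp8a1 second 74-nt exon: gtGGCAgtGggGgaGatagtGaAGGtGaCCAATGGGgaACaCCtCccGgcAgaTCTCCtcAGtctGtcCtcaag
The exons match at 38 of 74 positions, or 51.4%. Junctions of the first exon held 109 reads in the control and 29 in the knockdown library. Junctions of the second held 85 in the control and 106 in the knockdown library. The second exon thus took 43.8% of 194 control reads, with a 95% Wilson interval of 37 to 50.8, and 78.5% of 135 knockdown reads (70.9 to 84.6). The difference was 34.7 points (95% Newcombe interval 24.3 to 43.8). Reads were uneven within each exon. In the control library the second exon had 78 reads on its downstream and 7 on its upstream junction, and the first had 95 and 14. A single junction of each exon, counted again in the trios of the exon that follows the pair, gave the second exon 66 of the reads against 54 in the control and 77 against 9 in the knockdown library, shares of 55% and 89.5%. Of 41 pairs of equal-length tandem exons in the series, 41.5% moved by 5 points or more in either direction and 34.1% did so with an interval that leaves out 0. The Atp8a1 pair was 1 of 2 such pairs that moved by at least 34.7 points. Either exon keeps the frame. Without both, the reading frame of the annotated transcript ends after 150 residues.

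**Figure D3:**
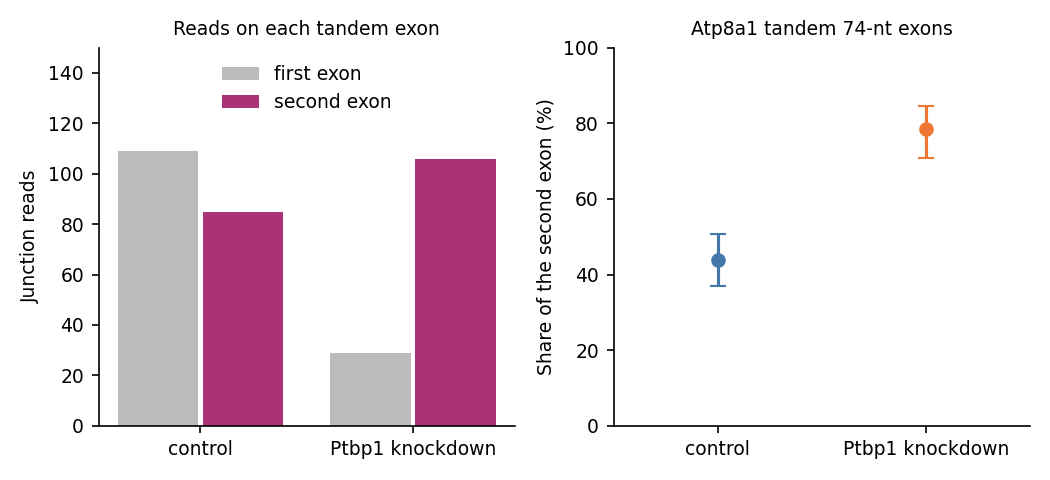
Use of the tandem 74-nt exons of Atp8a1. The left panel gives the junction reads on the first (grey) and second (purple) exon in each library, and the right panel the share of the second exon in percent with its 95% Wilson interval. The share was 43.8% in the control and 78.5% in the knockdown library.

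Atp9b, on the minus strand of chromosome 18, encodes a P4-ATPase of the trans-Golgi network that leaves the endoplasmic reticulum without a CDC50 subunit. In it 38 trios covering 31 exons passed the minimum of reads. For a 33-nt cassette exon near the end of the coding sequence PSI was 70.8 on 2152 control trio reads and 85.2 on 1943 knockdown trio reads. Reads that skipped it numbered 71 and 29, and the flanking junctions held 44 and 152 reads in the control and 48 and 150 in the knockdown library. The junction PSI was lower than the SpliceTrap estimate, 58 (50.5 to 65.2) in the control and 77.3 (69.4 to 83.7) in the knockdown library, and the difference was 19.4 points (8.61 to 29.2). The annotated protein has 1146 residues with the exon and 1135 without it. A 77-nt cassette exon had a PSI of 92.1 and 77.9, with 8 skipping reads in the control and 17 in the knockdown library, and a junction difference of -14.5 points (-26.4 to -3.1). Its skipping ends the frame after 380 residues. For a 95-nt constitutive-class exon PSI was 99.5 and 93.1, but skipping rested on 1 and 4 reads, and the interval of -18.4 to 3.3 points holds 0. The 75-nt and 13-nt alternative acceptors of the gene differed by 0.8 and 2 points. The 100 nt upstream held 65% pyrimidines for the 33-nt exon, 54% for the 77-nt exon and 57% for the 95-nt exon. Each of these windows had 0 matches to CTCTCT.

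Atp9a, the closest relative of Atp9b, encodes a P4-ATPase of endosomes and lies on the minus strand at chr2:168459938-168567909. Its 26 exons rested on few reads, with a median of 55.5 a trio in the control and 55 in the knockdown library. The 38-nt alternative acceptor, its deepest trio outside the constitutive class, had a PSI of 99.9 in both libraries. With 10 reads on the junction that tells the forms apart in each, the interval of the difference ran from -27.8 to 27.8 points. All 25 constitutive-class exons had a PSI of at least 99.1 in the control and 99.9 in the knockdown library.

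Atp11b encodes a P4-ATPase of early and recycling endosomes, at chr3:35653056-35755196 on the plus strand. All 28 of its measured exons were of the constitutive class, with median trio reads of 791 and 662, and none had a PSI below 99 in the control or 98.8 in the knockdown library. Its deepest trio, around a 131-nt exon, had 4712 and 4165 reads and 0 skipping reads in either library, with an interval of the difference of -1.25 to 1.12 points. No difference in splicing was detectable in Atp11b at this depth.

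Atp2b1 encodes the calcium pump found in most cell types and lies on the plus strand at chr10:98377786-98488777. It was the deepest of the 9 genes, with median trio reads of 3636.5 in the control and 2871 in the knockdown library over 20 exons. Its only cassette exon is the 154-nt exon of splice site C, at chr10:98481912-98482065. The exon is shown because it sets the calmodulin-binding tail, together with the upstream window at chr10:98481812-98481911. Capitals in the intron mark CTCTCT and TCTT, on the RNA strand only, and the matches overlap.
Atp2b1 154-nt exon: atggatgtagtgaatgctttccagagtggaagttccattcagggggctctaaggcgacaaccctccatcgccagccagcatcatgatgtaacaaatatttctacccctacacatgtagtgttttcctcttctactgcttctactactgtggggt
Atp2b1 upstream intron: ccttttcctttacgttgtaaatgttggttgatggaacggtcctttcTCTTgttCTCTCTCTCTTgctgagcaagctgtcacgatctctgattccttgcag
The window held 3 matches to CTCTCT and 66% pyrimidines, a share above that of 85.9% of the cassette exons. No protein-coding transcript that spans the site in the annotation used here holds an exon with these ends, and other transcript types were not checked.

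The PSI of the 154-nt exon was 3.2 in the control library, from 9571 trio reads, and 19.7 in the knockdown library, from 7465. Reads joining it to the exon before numbered 39 in the control and 202 in the knockdown library, and those joining it to the exon after numbered 4 and 47. Skipping had 993 and 500 reads. The junction PSI was 2.17 (1.44 to 3.26) and 20 (17.1 to 23.3), a difference of 17.8 points (14.7 to 21.2), and it was 25 points when the larger inclusion junction was taken alone. Skipping was the main choice in both libraries. The annotated protein has 1220 residues, and inclusion of all 154 nt changes the frame so that it has 1176. In both libraries the junction after the exon held fewer reads than the junction before it. Whether every transcript with the exon held all 154 nt was not tested, so the protein made from them is not known. The 39-nt exon at chr10:98456501-98456539, of the constitutive class, was not skipped in a single read of either library, beside 690 and 588 reads on its upstream junction. The other exons of the gene also stayed at a PSI of at least 99.4 in the control and 99.6 in the knockdown library.

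Atp2b4 encodes a calcium pump known from red blood cells and sperm and lies on the minus strand at chr1:135599255-135697618. It held the most exons beyond the threshold, 4 higher and 1 lower of 22. At splice site C the database lists an exon of 181 nt and one of 191 nt that share their acceptor and differ by an alternative donor 10 nt further on. The longer form, at chr1:135608209-135608399, is shown with the 10-nt extension in capitals, because only the donor tells the forms apart. Its upstream window, at chr1:135608400-135608499, has CTCTCT and TCTT in capitals as above.
Atp2b4 191-nt exon: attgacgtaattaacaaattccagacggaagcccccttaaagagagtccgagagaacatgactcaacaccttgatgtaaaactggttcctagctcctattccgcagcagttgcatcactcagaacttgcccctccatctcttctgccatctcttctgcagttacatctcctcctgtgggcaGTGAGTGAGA
Atp2b4 site C upstream intron: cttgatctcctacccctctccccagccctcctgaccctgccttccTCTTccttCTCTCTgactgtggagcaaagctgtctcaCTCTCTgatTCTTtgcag
The window held 2 matches to CTCTCT and 74% pyrimidines, above 96.6% of the cassette exons.

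The PSI of the 181-nt form was 12.7 in the control and 41.7 in the knockdown library, and that of the 191-nt form was 10.2 and 39.2. These estimates share the reads on the common 181 nt and on the acceptor. The shared acceptor junction held 7 reads in the control and 44 in the knockdown library, and skipping held 53 and 54. The donor of the short form had 9 and 25 reads. The donor of the long form had 0 reads in the control and 15 in the knockdown library. The junction PSI of the 181-nt form differed by 26.2 points (11.9 to 38.4) and that of the 191-nt form by 28.7 points (15.2 to 40.2). In the trio that compares the donors, the long donor had 0 of 8 reads in the control, which leaves room for a share of up to 32.4% by the Wilson interval, and 37.8% of the reads in the knockdown library (24.1 to 53.9). That difference had an interval of 2.59 to 53.9 points. The annotated protein has 1205 residues without the exon, 1172 with the 181-nt form, and 1166 with the 191-nt form, where the stop codon lies inside the exon.

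At splice site A, Atp2b4 has a 36-nt exon of the constitutive class at chr1:135633193-135633228, on the minus strand. It is shown with the upstream window at chr1:135633229-135633328 because it moved in the opposite direction to the site C exons. TCTT is in capitals in the intron, and CTCTCT does not occur there.
Atp2b4 36-nt exon: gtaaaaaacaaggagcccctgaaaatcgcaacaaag
Atp2b4 site A upstream intron: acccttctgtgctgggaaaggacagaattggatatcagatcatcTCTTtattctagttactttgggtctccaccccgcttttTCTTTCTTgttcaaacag
Pyrimidines made up 61% of the window, above 70.4% of the cassette exons. The PSI of the 36-nt exon was 87.2 in the control library, from 82 trio reads, and 31.2 in the knockdown library, from 121. Skipping reads numbered 5 in the control and 44 in the knockdown library. The upstream junction held 20 and 7 reads and the downstream junction 21 and 17. Inclusion was the main form in the control and skipping in the knockdown library, with a junction PSI of 80.8 (62.1 to 91.5) and 21.4 (12.7 to 33.8). The difference of -59.3 points had an interval of -73.2 to -37. The frame is kept, and the protein has 1205 residues with the exon and 1193 without it. The 661-nt exon of the gene had a PSI of 90 and 95.5, with 4 and 3 skipping reads and an interval of -10.3 to 18.2 points that holds 0. Its upstream window held 69% pyrimidines and 0 matches to CTCTCT. Whether the upstream windows of these exons go with the direction of their differences was not tested. Of the 19 constitutive-class exons of Atp2b4, 17 had a PSI of at least 95 in both libraries.

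At site C the exon was skipped in most transcripts of both genes in the control library and was included more in the knockdown library, by 16.5 points in Atp2b1 and 29 points in Atp2b4. The intervals of these differences overlap, and whether the genes differ from each other was not tested. At site A the 39-nt exon of Atp2b1 had a PSI of 99.9 in both libraries, while the 36-nt exon of Atp2b4 differed by -56 points. Reads that span the sites together were not measured, so it is not known whether the same transcripts carried both choices.

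Levels were compared per length as the read depth per base, summed over the transcripts of a gene and scaled to a gigabase of aligned bases. In the control and knockdown library in turn, the depth was 39.5 and 35.3 for Atp2b1, 18.6 and 16.3 for Atp8a1, 15.5 and 16.1 for Atp11b, 8.15 and 8.06 for Atp9b, 3.9 and 6.5 for Atp2b4, and 1.12 and 1.46 for Atp9a. The order of the genes was the same in both libraries. Without replicates it cannot be said which neighbours in it differ beyond their spread, and Atp8a1 and Atp11b in particular were close in the knockdown library. Atp8a2, a phosphatidylserine flippase of neurons, had 25 and 5 read equivalents over the whole gene (depth times length over the read length) and no trio with more than 4 reads. Atp11a, a flippase of the plasma membrane, had 2 read equivalents in the control and 0 in the knockdown library. Atp2b2, the calcium pump of cerebellar neurons and inner ear hair cells, had 0 in both, and a count of 0 allows up to 3. No splicing value can be given for these 3 genes.

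**Figure D4:**
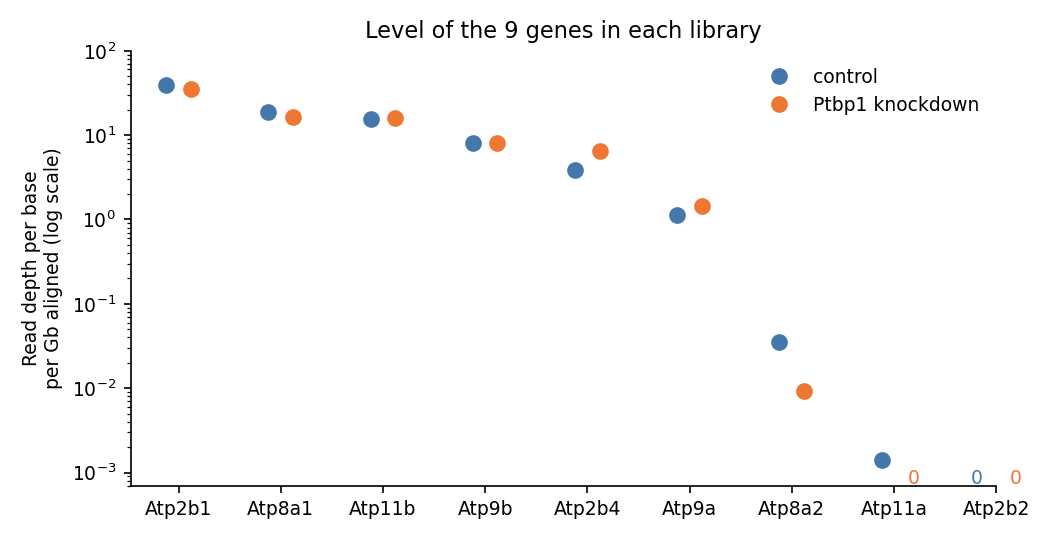
Read depth per base per gigabase of aligned bases (log scale) of the 9 genes in the control (blue) and knockdown (orange) libraries, 1 value a library, with 0 written where no read was assigned. Atp2b1 had the greatest depth, 39.5 and 35.3, and 3 genes lay near 0.

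Atp2b4 was the 1 measured gene past a 1.5-fold difference in level with at least 10 read equivalents in both libraries. Its level was 32.3 ppm of the aligned bases in the control and 51.7 ppm in the knockdown library, a log2 ratio of 0.68 or 1.6-fold. Over all genes with as many reads, 20% were 1.5-fold or more higher and 2.91% lower in the knockdown library. The median log2 ratio of all those genes was 0.13, and relative to it that of Atp2b4 was 0.55, which is below 1.5-fold, where 15.7% of all genes were above. The bounds of the authors' FPKM allow a log2 ratio of 0.13 to 1.03. FPKM is on its own library scale, unlike the ppm level, so its bounds here and below are not centred on the ppm ratio. For Atp2b4 the log2 ratio of FPKM with a pseudocount of 1 was 0.56. Fewer cells of a type and less RNA per cell cannot be told apart in bulk RNA. Atp8a2 had a log2 ratio of -1.91 on the 25 and 5 read equivalents above, with a counting interval of -3.26 to -0.56, and was the 1 gene lower by 1.5-fold among those above 0 in both libraries, where 4.8% were lower and 24.3% higher. Relative to the median of all genes the log2 ratio was -0.35 for Atp8a1, -0.28 for Atp2b1, -0.17 for Atp9b, -0.08 for Atp11b and 0.26 for Atp9a. The sign before this centring was the other one for Atp11b, at 0.05. It also turned for Atp9a (-0.12) and Atp9b (0.23) when RefSeq transcripts alone were counted. No direction is therefore given for Atp9a, Atp9b or Atp11b. For Atp2b1 the log2 ratio before centring was -0.16, and it was -0.52 when RefSeq transcripts alone were counted. By the median coverage of constitutive exons it was -0.02, so near 0 that its direction is not firm either. Trio reads of Atp8a1 did not fall alike along the gene. In the control and knockdown library they were 409 and 221 at its 73-nt exon, and 882 and 699 at its 184-nt exon.

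Of 35 other genes of phospholipid transport and calcium extrusion, 7 were assembled in 1 locus with another gene and not measured, among them Tmem30a, the main CDC50 subunit. Of the rest, 19 had at least 10 read equivalents in both libraries, and of these 8 were higher by 1.5-fold or more and 0 lower, before the shift of all genes was taken off. Relative to the median of all genes, 7 were higher and 0 lower. The lists were written with results of these data known, and their counts are given beside the shares of all genes as a description. Before the shift was taken off, 20% of all genes were higher and 2.91% lower, and relative to the median 15.7% and 5.5%. Among the other flippases, Atp8b3 was higher, at 1.15. Its depth per base per gigabase was 0.89 in the control and 1.27 in the knockdown library. Atp8b2 and Atp10d had log2 ratios of -0.17 and 0.17. Among the scramblases, which let phospholipids pass in both directions, Xkr4 was at 2.64 and Plscr4 at 0.84, and the calcium-activated Ano6 at 0.34. The bounds of the authors' FPKM allow a log2 ratio of 0.15 to 1.36 for Xkr4, below the value from coverage times length. Its depth per base per gigabase was 0.226 in the control and 0.428 in the knockdown library, so the size of its difference depends on the measure. Among the calcium pumps, Atp2b3, a neuronal plasma membrane pump, was at 1.46, Atp2a3, of the endoplasmic reticulum, at 0.77, and Atp2c2, of the Golgi, at 1.20 on 11 and 20 read equivalents. Atp2c1, the other Golgi pump, was at -0.24. The sodium-calcium exchangers Slc8a1 and Slc8a3 were at 0.71 and 0.72. For Slc8a1 the bounds of the authors' FPKM allow a log2 ratio of 1.21 to 1.89, above the value from coverage times length. Its depth per base per gigabase was 4.02 in the control and 13.4 in the knockdown library. The FPKM bounds hold 0 for Atp8b3, Plscr4, Atp2c2 and Slc8a3, with lower ends of -0.48, -0.07, -0.73 and -0.04. By FPKM the direction of these genes is therefore not firm. For Atp2b3 and Atp2a3 the bounds leave out 0, with lower ends of 0.27 and 0.31.

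**Figure D5:**
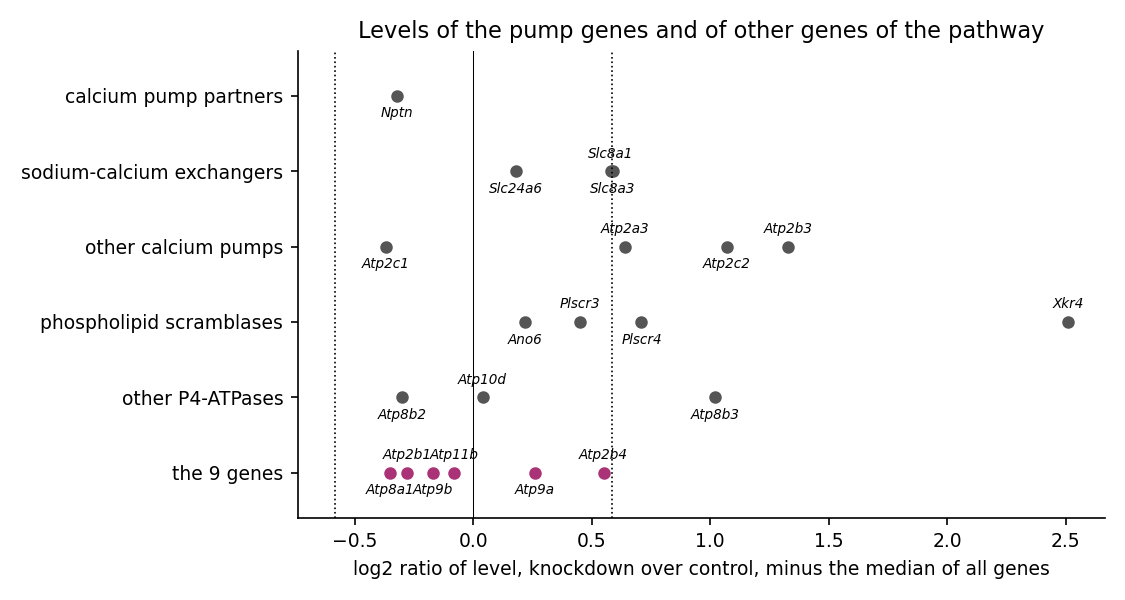
Log2 ratio of the level (knockdown over control, as ppm of aligned bases) minus the median of all genes, for the 9-gene set (purple) and the other lists (grey), for genes with at least 10 read equivalents in both libraries, of which a few are not shown. Each point is 1 gene, and dotted lines mark 1.5-fold. The genes of the 9-gene set lie between -0.35 and 0.55, inside the lines, and Xkr4 lies farthest out at 2.51.

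In 25 genes of these lists 290 exons had 20 reads in each library. PSI was at least 5 points higher for 10 of them and lower for 6, shares of 3.45% and 2.07% beside 2.72% and 2.68% of all exons. With a junction interval that leaves out 0 they numbered 2 and 1, shares of 0.69% and 0.345% beside 0.767% and 0.747% of all exons. Nothing particular to these genes is read from the shares. A 107-nt exon of Slc8a1 went from a PSI of 13.3 to 76.1, with an interval of 54.3 to 70 points. A 12-nt exon of Atp2c1 went from 22 to 43.5 (8.7 to 22.9), and a 131-nt exon of Atp8b2 from 93.6 to 85.6 (-12.6 to -1.29). The site C exon of Atp2b3, also of 154 nt, had a PSI of 99.9 in the control and 93.6 in the knockdown library on 40 and 75 trio reads, with an interval of -47.1 to 44.6 points.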

How the data were processed

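RNA of N2A cells was sequenced by the authors from 1 control and 1 Ptbp1 knockdown library, with a strand-specific protocol and paired reads of 100 bases. The authors ran SpliceTrap on mm9 and deposited, for each trio, the inclusion ratio as a fraction, the count of reads on each junction, and the coverage as a signal in reads per 100 nt. The authors aligned reads with TopHat and ran Cufflinks, and deposited FPKM with bounds and the mean depth of each transcript. Versions are not given in the sources used here. FPKM was used only as a ratio between the libraries, since its scale is unusual.

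PSI was the corrected inclusion ratio times 100. Reads of a trio were coverage times length over 100. For each exon and class the trio with the most reads was used. For junction PSI, reads on the inclusion junctions were averaged and divided by that average plus the skipping reads. Alternative sites used the distinguishing junction alone. Shares have 95% Wilson intervals, and differences have Newcombe intervals. Reads that cross both junctions of a short exon can be credited to 1 junction, and counts of the same junction differ between trios. Gene levels were depth times length summed over the transcripts of the Cufflinks locus that holds the gene's RefSeq transcript, over the library total. RefSeq transcripts alone had been planned, but those of Atp2b4 were listed at 0 in both libraries while assembled transcripts held its reads. Symbols were matched for 97.5% of RefSeq transcripts. Sequence and annotation came from NCBIM37, which is mm9, and GENCODE. Protein lengths were read from the genome along the longest annotated coding transcript of the gene, with or without the exon.

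Named are the 9 genes, their exons that differed by 5 points or more, in genes with none the deepest trio of another class, or of the constitutive class where no other was measured, in the calcium pumps every trio outside the constitutive class, Ptbp1, Ptbp2 and pathway genes past 1.5-fold. The site A exon of Atp2b1, the tandem exons of Atp8a1, the exons of pathway genes and the pathway genes within 1.5-fold were added after their values were seen. The genes, lists and settings were chosen with earlier results of these data known. Alternatives were other read minimums and thresholds, the ratio before correction, junction PSI, other trios, FPKM with a pseudocount of 1, other scalings and other transcript sets. Some results are not reported here. The intervals were tested only on counts simulated from the counting model that they assume. That test cannot show that they hold for averages of uneven junctions or for PSI near its ends. Scripts ran in Python 3.11.15 with pandas 2.3.3 and NumPy 2.4.6, intervals used SciPy 1.17.1, and figures matplotlib 3.10.9.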

Additional observations from a re-analysis of the deposited data

How the results depend on the processing

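The counts of exons past the threshold were 7 higher and 4 lower, and 11 were higher when every trio was counted, since the site C exons of Atp2b4 and the 33-nt exon of Atp9b have 2 trios each. They ranged from 6 to 7 higher and from 3 to 5 lower under the other read minimums, the ratio before correction, junction PSI, a threshold of 10 points and the added interval. None of the differences in PSI of the 11 exons past the threshold changed sign under the alternatives run for them. For the 75-nt and 13-nt acceptors of Atp9b the junction difference was 0, where PSI gave 0.8 and 2 points. That of the Atp2b1 154-nt exon was 16.5 points, and 25 by the larger inclusion junction, and that of the Atp8a1 45-nt exon was 55.7, and 46.7 by junction PSI.

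The count of genes higher by 1.5-fold was 1, Atp2b4, and 0 with FPKM and a pseudocount of 1, with FPKM over the library median, with scaling by the median ratio, and with RefSeq transcripts alone, where Atp2b4 is listed at 0. Its log2 ratio was 0.29 to 0.74 over the alternatives that gave one. The count of genes lower was 1, Atp8a2, and 2 with FPKM, where Atp11a is also listed at 0 in the knockdown library. It was 0 with FPKM over the median, with at least 10 read equivalents, and with the coverage of constitutive exons, for which Atp8a2 has too few reads. The use of RefSeq transcripts alone, the coverage of constitutive exons, the totals without mitochondrial transcripts and the settings for the tandem exons, where the share differed by 34.5 to 34.7 points, were chosen after seeing the data.

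No paired analysis was possible because each group was 1 library. Leaving out a library was not possible for the same reason. Depth limited the exons of Atp9a, the donors of Atp2b4 and all of Atp8a2, Atp11a and Atp2b2. Other differences between the cultures or libraries cannot be told apart from the knockdown.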
